A study of Arabidopsis thaliana with 3 samples.

Results

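The NAC genes encode one of the large plant families of transcription factors. The genes described here are the nuclear protein-coding genes whose symbol in the gene table is NAC followed by a number. There are 79 of them among 27444 protein-coding genes, and the synonyms of 79 of 79 name a NAC domain or an ANAC number. A gene was counted as having JMJ28 when a peak summit lay inside it or within 1000 bp of either end. Of these, 6 members had shared or short symbols and are given here under their ANAC number. They are NAC013 (symbol NAC13, AT1G32870), NAC055 (NAC3, AT3G15500), NAC056 (NAC2, AT3G15510), NAC059 (NAC3, AT3G29035), NAC078 (NAC2, AT5G04410) and NAC092 (NAC6, AT5G39610).

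The summits came from chromatin immunoprecipitation with sequencing of Arabidopsis thaliana Col-0 seedlings that carry the transgene JMJ28pro::JMJ28:3xFLAG. In it the histone demethylase JMJ28 is driven by its own promoter and carries a FLAG epitope tag. Seedlings were 14 days old and had grown under long days at 22 °C, with 2 ChIP libraries and 1 input library, all of this genotype. The file holds 1 list of 18368 nuclear summits, each with a score that is a −log10 of a p or q value set by the authors, so neither a value per library nor replicate error is at hand for the counts. Sequencing depth is unknown. The counts below are therefore descriptions without a test, and the main ones are set beside the same count over all genes. In whole seedlings, JMJ28 in fewer cells and less JMJ28 per cell cannot be told apart.

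NAC proteins share a conserved DNA-binding domain near the N terminus and differ in the rest of the protein. Some are held at membranes by a C-terminal anchor and move to the nucleus after cleavage. Others drive leaf ageing, responses to drought and abscisic acid, the building of xylem vessels and fibres, root cap maturation or the separation of organs. JMJ28 belongs to the JmjC proteins that remove methyl groups from lysine 9 of histone H3.

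JMJ28 summits were found at 39 of the 79 NAC genes, or 49.4% (exact 95% binomial interval 37.9 to 60.9, which covers counting error only). Over all protein-coding genes the share was 65.4%. Other genes with the lengths of the NAC genes had a summit in 66.4% of cases, which would give 52.5 NAC genes. This share weights the other genes to the NAC genes' deciles of gene length. Inside the gene itself, 27 NAC genes (34.2%, interval 23.9 to 45.7) had a summit. The share over all genes was 47.7%, and over genes of the same length 48.6%. A summit in the flank only was found at 12 NAC genes (15.2%), against 17.7% of all genes and 17.9% of genes of the same length.

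The family's share stayed below that of all genes when summits were counted differently, save for flank-only summits with flanks of 2000 bp. With flanks of 500 bp, 34 NAC genes (43.0%) had a summit, against 59.2% of all genes, and with flanks of 2000 bp 48 (60.8%) against 73.3%. With every summit given to the closest coding gene alone, 29 NAC genes (36.7%) had one, against 50.9%. From the upper 50% of scores alone, the count was 23 (29.1%) against 43.0%, inside the gene 18 (22.8%) against 27.4%, and in the flank only 5 (6.33%) against 15.6%. With flanks of 500 bp, 7 NAC genes (8.86%) had a flank summit only, against 11.4% of all genes. With flanks of 2000 bp the order changed, with 21 NAC genes (26.6%) against 25.6%.

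NAC genes with and without a summit were close in length, with medians of 1903 bp and 1930.5 bp. The family ranged from 444 bp in NAC088 to 5710 bp in NAC075. Among other genes the share with a summit went from 33.3% in the shortest decile of length to 83.0% in the longest. The 14 NAC genes over 3000 bp had a summit in 6 cases, against 80.3% of the 6996 other genes of that size. In these long genes, the members with a summit were NAC014, NAC017, NAC050, NAC052, NAC078 and NAC082. NAC007, NAC028, NAC038, NAC045, NAC074, NAC075, NAC076 and NAC099 had none. In deciles 3, 4 and 5, which held the most members, the NAC shares were 45.5%, 45.5% and 58.8%, and the shares of other genes 55.4%, 63.3% and 69.5%.

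**Figure D1:**
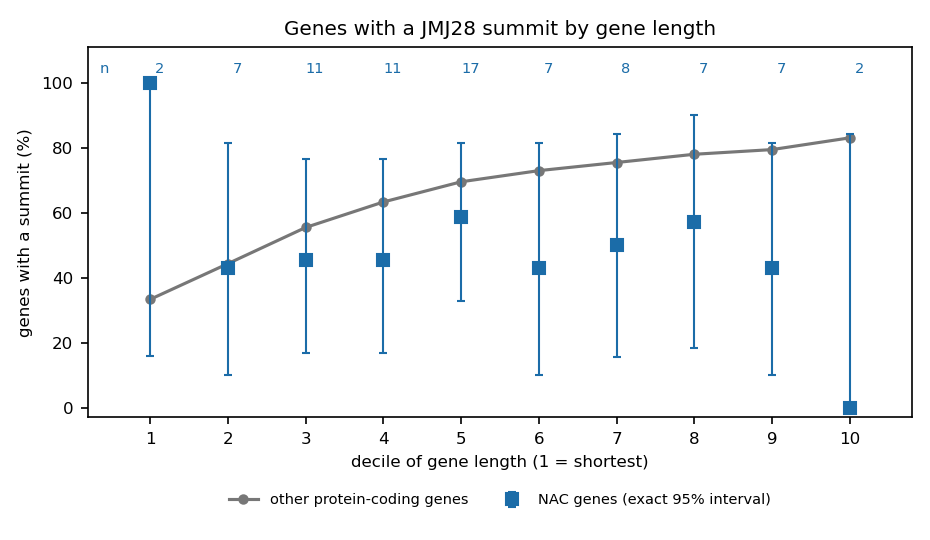
Share of genes with a JMJ28 summit inside or within 1000 bp (vertical axis, percent) by decile of gene length (horizontal axis), for NAC genes (squares, with exact 95% binomial intervals and the number of genes above) and all other protein-coding genes (line). The NAC squares lie below the line in 9 of 10 deciles, and the exception is the shortest decile with 2 NAC genes.

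The 27 members with a summit inside were NAC001, NAC003, NAC004, NAC013, NAC014, NAC017, NAC027, NAC032, NAC041, NAC044, NAC048, NAC050, NAC053, NAC055, NAC062, NAC077, NAC078, NAC080, NAC082, NAC083, NAC089, NAC090, NAC094, NAC095, NAC100, NAC102 and NAC103. Of these, NAC044, NAC048, NAC078, NAC089 and NAC095 also had one in the flank. The 12 with a flank summit only were NAC006, NAC016, NAC049, NAC052, NAC057, NAC059, NAC063, NAC071, NAC085, NAC088, NAC096 and NAC101. The 40 members with none were NAC005, NAC007, NAC010, NAC011, NAC012, NAC015, NAC019, NAC020, NAC1, NAC023, NAC024, NAC025, NAC028, NAC036, NAC038, NAC042, NAC045, NAC046, NAC047, NAC056, NAC058, NAC060, NAC061, NAC064, NAC065, NAC066, NAC067, NAC069, NAC070, NAC073, NAC074, NAC075, NAC076, NAC084, NAC086, NAC092, NAC093, NAC097, NAC099 and NAC105. Most members with JMJ28 had 1 summit (27 genes), 10 had 2, and 2 had 3 (NAC017 and NAC078). At least 2 summits were thus found at 15.2% of the family, against 29.8% of all genes and 29.3% of genes of the same length. For at least 3 summits the shares were 2.53% and 6.35%.

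**Figure D2:**
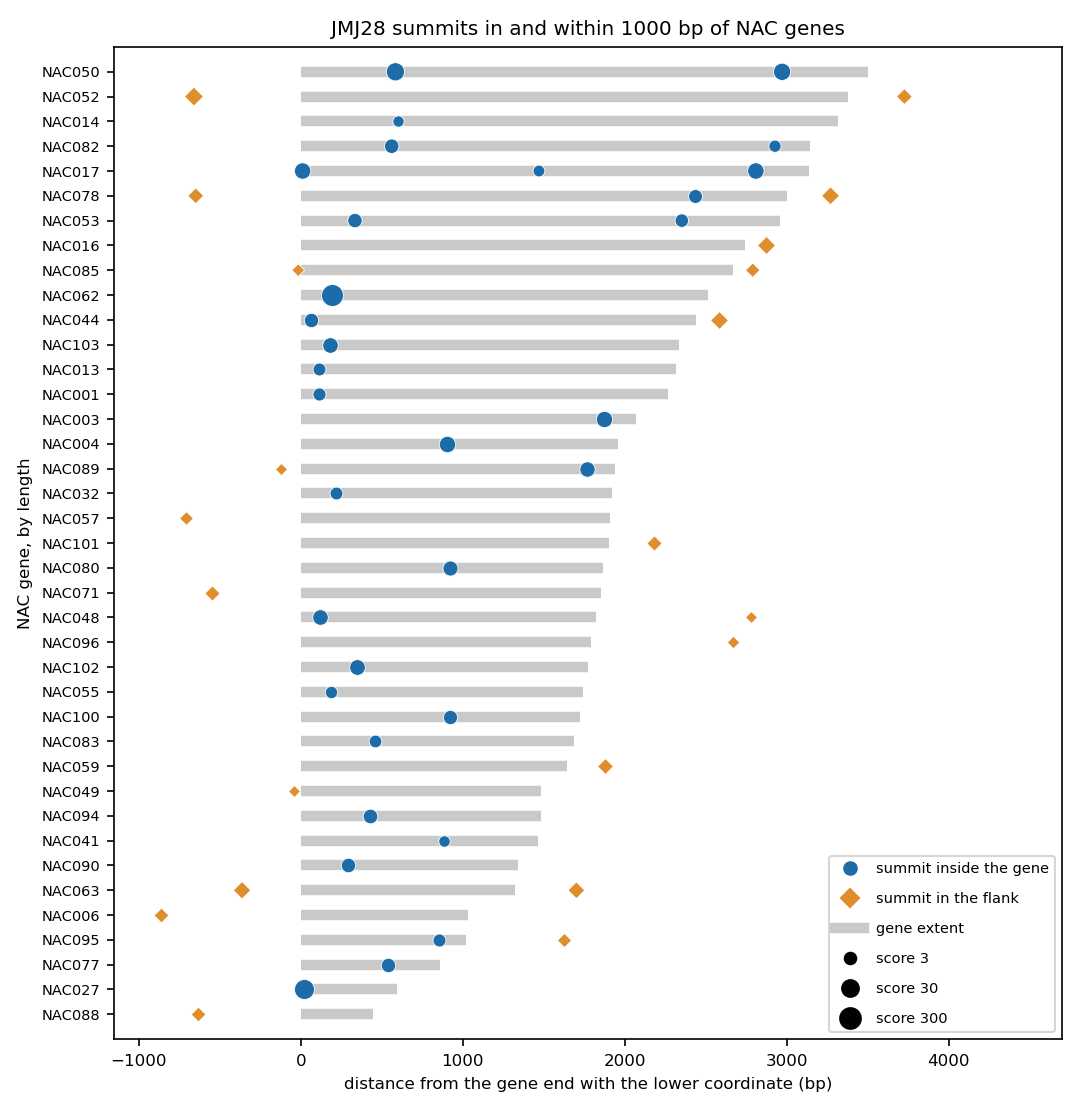
The 39 NAC genes with a JMJ28 summit, sorted by length (grey bars), with summits inside (circles) and in the flank (diamonds) at their distance in bp from the gene end with the lower coordinate. Within each marker shape the area grows with the logarithm of the score, and direction of transcription is not shown. Most circles lie toward a gene end.

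Some flank summits lay in a neighbouring gene. For 7 of the 12 members with a flank summit only, every such summit was inside another protein-coding gene, as at 69.4% of all 4850 genes with a flank summit only. The summits of NAC063 lay in its neighbours SAP130a (score 20.4) and SAP130b (14.6). The summit of NAC006 was in LIN2 (6.84), that of NAC088 in SIP1;2 (6.58) and that of NAC101 in BAG7 (7.92, chromosome 5, position 25052334). NAC016 and NAC052 had theirs inside other NAC genes, described below with the tandem genes, and NAC096 in AT5G46600 (3.00). For the other 5 members the flank summits lay outside protein-coding genes, at NAC049, NAC057, NAC059, NAC071 and NAC085. Of these, the summit near NAC057 lay in the long noncoding RNA gene AT3G03525, that near NAC059 in the long noncoding RNA gene AT3G05655, and that near NAC071 in the tRNA gene AT4G17975. Closest to its gene was NAC085, with summits 15 bp (score 3.19, chromosome 5, position 4670274) and 122 bp (5.82, position 4673080) outside the ends. The limit of 1000 bp cut between NAC096, whose summit lay 873 bp away, and NAC058, NAC065 and NAC099, whose nearest summits were 1022, 1153 and 1209 bp away. For the 40 members with none, the nearest summit was a median of 3422 bp from the gene, and 27377 bp at NAC028.

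Scores ran from 2.46 at NAC049 to 677 at NAC062, taking the highest score per gene. The median over the 39 genes was 9.97 (interquartile range 5.46 to 22.3), and 13.6 (7.36 to 26.8) over the other genes with a summit. A score above 20 was reached by 11 of the 39 (28.2%), against 34.4% of the other genes with a summit. For summits inside the gene only, the medians were 10.3 and 11.2. The score reflects evidence against background and sequencing depth, and is not an amount of bound JMJ28.

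NAC062, a membrane-held factor that acts in cold and in the unfolded protein response, stood far above the rest of the family. Its single summit, 194 bp inside one end, was at position 18362637 of chromosome 3. The score of 677 was the 8th highest of the nuclear genome. The nearest other summit scored 109 and lay 1159 bp outside the gene, inside AT3G49540. NAC027 followed with a score of 190.1 (chromosome 1, position 23795072). Its summit was 22 bp inside NAC027 and at the same time inside the overlapping gene AT1G64100, so it cannot be given to either. It was the single summit of the family inside 2 protein-coding genes.

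The next scores belonged to NAC050, a partner of the histone H3 lysine 4 demethylase JMJ14, with summits of 68.2 and 40.5. NAC017, which signals from mitochondria to the nucleus, had 26.4, 25.9 and 3.38. NAC004 had 26.4 (chromosome 1, position 435870) and NAC003 24.6 (chromosome 1, position 430525). NAC102, of the ATAF type, had 18.0 (chromosome 5, position 25526857), and NAC103, a factor of the unfolded protein response, 16.9 (chromosome 5, position 25633633). NAC048 also had 16.9 (chromosome 3, position 1172804). NAC089, which promotes cell death under stress of the endoplasmic reticulum, had 15.4 (chromosome 5, position 7377605). These 10 genes, NAC062 and NAC027 included, had the highest scores inside the gene.

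**Figure D3:**
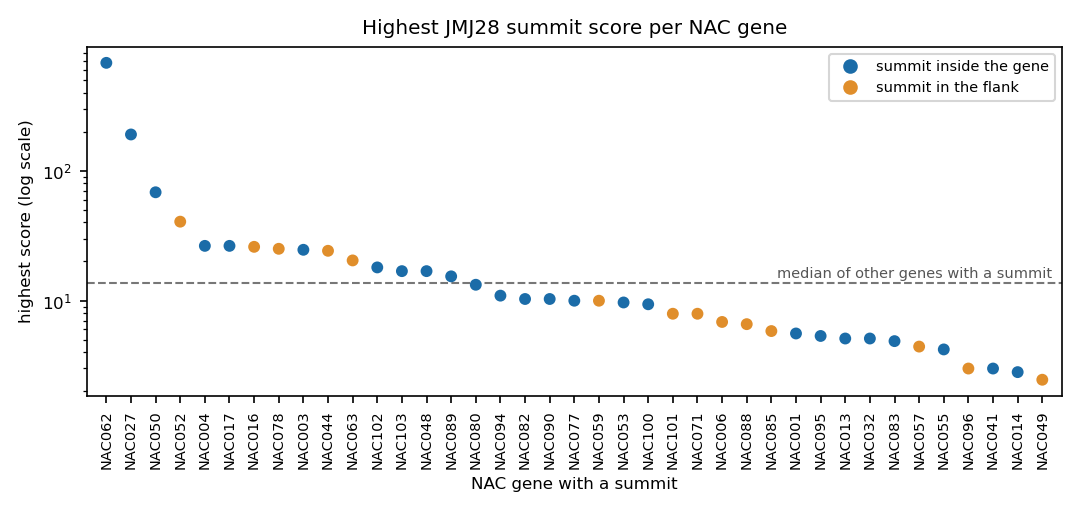
Highest summit score (−log10 value set by the authors, log axis) for each of the 39 NAC genes with a JMJ28 summit, inside the gene or in the flank by colour. The dashed line is the median of 13.6 over other genes with a summit. NAC062 (677) and NAC027 (190.1) stand apart, and 15 of the 39 genes lie above the line.

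Inside NAC genes most summits lay toward a gene end. The median length was 1909 bp for members and 2079 bp for other genes, and no matching for length was done here. Distance to the nearer end is capped by the middle of the gene. The 32 summits inside members had a median distance of 324.5 bp to that end (interquartile range 176 to 568 bp). Over all protein-coding genes the median was 296 bp (167 to 507 bp). Within 500 bp of an end were 21 of the 32 (65.6%), against 74.5% over all genes. NAC017 had both the summit nearest to an end (12 bp) and the deepest one (1471 bp). Summits toward both ends of a gene were seen in NAC017, NAC050, NAC053 and NAC082, the 4 members with more than 1 summit inside. Transcription starts and ends were not told apart, since strand was not used here.

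To set the roles of NAC proteins side by side, 64 NAC family genes, 42 of them members, were sorted into 12 groups by what they are known for, and 33 of the 64 had a summit. The other 22 have symbols such as ATAF1, CUC1 or VND7. The 37 members in no group had a summit in 19 cases and the 42 in a group in 20. In groups of more than 3 genes, membrane-held factors had a summit most often (12 of 14, against 74.6% of genes of the same length). Among the same groups, regulators of xylem and secondary wall had one least often (3 of 15, against 73.1%). Every gene of the smaller DNA damage, JMJ14 partner and ER stress groups had one. The groups are small and were chosen with earlier results of these data known. The difference between groups was not tested, and the share over all genes was 65.4%.

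Membrane-held factors had a summit in 12 of 14 genes (85.7%), 10 of them inside, where genes of the same length had one in 74.6%. NAC016, which promotes leaf senescence, was counted through the summit of 25.9 inside its neighbour NAC017. NAC078 and NAC053, which raise proteasome genes when the proteasome is impaired, both had summits inside (highest inside scores 7.92 and 9.67). NAC089 had 15.4 inside and 2.63 in the flank (position 7375719). NAC013, another mitochondrial signalling factor, had 5.10 (chromosome 1, position 11911745) and NAC014 2.81 (chromosome 1, position 11975908). Under other symbols, TIP, named for its interaction with a viral coat protein, had 59.6, NTL9, which acts in immunity, 49.2 and NTM1, which acts in cell division, 26.4. NTL8 had summits in its flanks only, of 8.48 (inside AT2G27290) and 7.36. NAC060 and NAC069 were the group's genes without a summit.

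Regulators of xylem and secondary wall had a summit in 3 of 15 genes, against 73.1% of genes of the same length. Of the 7 VND genes, the switches of vessel cell fate, VND6 (NAC101) alone had one, in the flank and inside BAG7. VND1, VND2 (NAC076), VND3 (NAC105), VND4 (NAC007), VND5 and VND7 had none. None of the NST genes of fibre and anther walls had a summit, namely NST1, NST2 (NAC066) and NST3 (NAC012). The downstream factors SND2 (NAC073) and SND3 (NAC010) and the upstream regulator NAC075 also lacked one. Inside the gene, JMJ28 was at XND1, a repressor of vessel formation (8.77), and at NAC082, known as an interactor of VND proteins (10.3 at position 2892900 and 3.99 at position 2895266 of chromosome 5). NAC083, which also represses vessel genes and had a summit inside, was counted with leaf senescence instead.

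**Figure D4:**
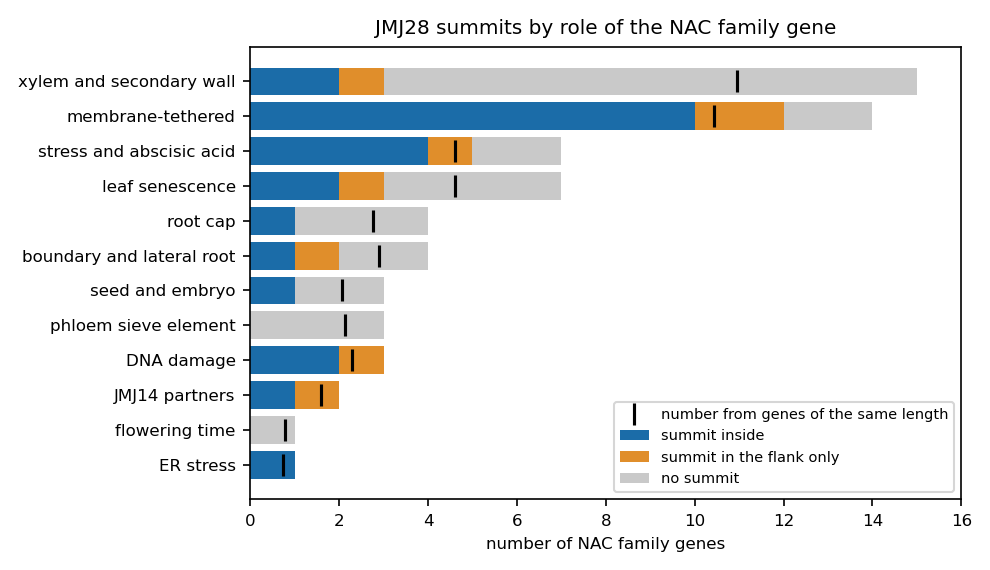
Number of NAC family genes per role group (horizontal axis) with a JMJ28 summit inside, in the flank only, or none. The black ticks give the number that the share among genes of the same length would yield. Xylem and secondary wall genes lie far below their tick (3 of 15), and membrane-held factors lie above it (12 of 14).

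Stress and abscisic acid genes had a summit in 5 of 7 cases (71.4%, against 65.9% of genes of the same length). RD26, a drought and abscisic acid regulator, had 47.0 inside and 7.92 in the flank, inside AT4G27400. NAC102 had 18.0, NAC032 5.10 (chromosome 1, position 29100060) and NAC055 4.20 (chromosome 3, position 5234646), all inside. ATAF1 had 19.2 in the flank, inside AT1G01725. NAC019, a close relative of NAC055, had none, and its nearest summit was 6598 bp away. ATAF2 had none.

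Leaf senescence genes had a summit in 3 of 7 cases (42.9%, against 65.8% of genes of the same length). NAP, a promoter of leaf ageing, had 7.36 inside. NAC083, which delays senescence and also represses vessel genes, had 4.87 inside (chromosome 5, position 4196716). It was counted in this group alone. NAC059, the paralog of the senescence regulator NAC092 (ORE1), had 9.97 in the flank, 233 bp from the gene and outside other coding genes (chromosome 3, position 11035541). NAC092 itself, NAC046 and NAC042 (JUB1), which delays ageing, had none, nor did NAC087 (symbol ANAC087, not a member). NAC017, NAC082 and NAC090 (10.3 at chromosome 5, position 7409053), which are known to restrain senescence together, all had a summit inside. They were picked out after their values were seen.

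The smaller groups held few genes each. Both JMJ14 partners, NAC050 and NAC052, had a summit, where genes of the same length had one in 79.3% of cases. So did the 3 DNA damage factors: SOG1, the central regulator (7.92), NAC044 (9.67 inside at position 229139 of chromosome 3, and 24.2 in the flank, inside CDC48C, at position 231656) and NAC085 in the flank. For genes of their lengths the share was 76.2%. All 3 phloem sieve element genes, NAC020, NAC045 and NAC086, lacked one (70.9% of genes of the same length had one). The root cap genes NAC015 (BRN1), NAC070 (BRN2) and FEZ had none, and SMB had one inside that scored 4.20 (1 of 4 genes, against 68.9%). Among boundary and lateral root genes, CUC3 had a summit inside (2.81), and CUC1 had 2 in the flanks, of 16.9 (inside AT3G15180) and 14.6. CUC2 and NAC1 had none (2 of 4 genes with a summit, against 72.6%). The seed gene NAM had 3.00 inside, while NAC056 and NAC025 had none (1 of 3, against 68.5%). LOV1, a repressor of flowering that lowers CO, had none either.

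Some members stand next to each other and had a summit in common. There were 7 pairs of neighbouring members with less than 5000 bp between them, made of 12 genes, and 11 of the 12 had a summit. Over all coding genes in neighbouring pairs with such gaps the share was 66.0%, and 72.5% in pairs with gaps under 1000 bp. In 5 of the 7 pairs a single summit was counted for both genes, all among the 6 pairs with gaps under 1000 bp. Over all 12707 coding pairs with gaps under 1000 bp, 52.5% had a summit in common, which flanks of 1000 bp make possible by construction. The 67 members outside tandems, a subset set apart after seeing the data, had a summit in 28 cases (41.8%), against 65.4% of all protein-coding genes. NAC family genes under other symbols were not paired. NAC069 (no summit), which has NTM1 (summit inside) as its neighbour, was thus counted as outside tandems. The difference between tandem and other members was not tested.

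NAC050, NAC052 and NAC053 formed a run on chromosome 3, with gaps of 129 bp and 14 bp. NAC050 held summits at positions 3264779 (68.2) and 3267166 (40.5), and NAC053 at 3271552 (9.67) and 3273570 (6.58). NAC052 in the middle had none inside its 3378 bp, and was counted through summits 659 bp and 350 bp away in its neighbours. JMJ28 was thus placed inside 1 of the 2 JMJ14 partner genes. Whether reads of these neighbouring relatives could be placed uniquely was not tested.

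**Figure D5:**
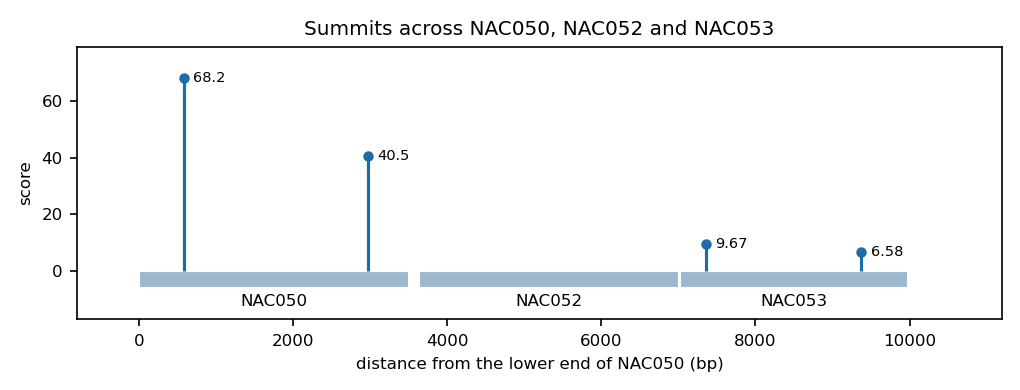
Summits (vertical lines, height is the score) along the neighbouring genes NAC050, NAC052 and NAC053 (bars), with distance in bp from the lower end of NAC050. NAC050 holds the summits of 68.2 and 40.5, NAC053 those of 9.67 and 6.58, and none lies inside NAC052.

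In the pair of NAC016 and NAC017, the shared summit lay 12 bp inside NAC017 and 130 bp from NAC016 (chromosome 1, position 12451417). NAC017 also held summits at positions 12452876 and 12454215. NAC077 held one (9.97, chromosome 5, position 1243036) that was 648 bp from NAC078. NAC078 had a further summit inside (7.92, position 1246119) and one of 25.0 in the flank that lay in AT5G04420 (position 1246955). NAC048 and NAC049 shared a weak one of 2.46 (chromosome 3, position 1175466), 40 bp from NAC049. Of NAC003, NAC004 and NAC005 the first and second had a summit each inside, and NAC005, 937 bp from NAC004, had none.

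The share differed between chromosomes, some of which held few members, and this difference was not tested. Chromosome 5 had a summit at 16 of 23 members (69.6%), against 67.5% of its other protein-coding genes. On chromosome 4 just 1 of 8 had one, NAC071 in the flank, against 64.9% of other genes there. RD26, NTM1 and NTL9, NAC family genes on chromosome 4 under other symbols, had summits inside (47.0, 26.4 and 49.2). The counts were 10 of 23 on chromosome 1 (66.6% of other genes), 1 of 4 on chromosome 2 (59.1%) and 11 of 21 on chromosome 3 (67.1%). None of the 79 members lay in a window of 500 kb that is poor in genes. The 139 coding genes next to members had a summit inside in 42.4% of cases, where genes of their lengths had one in 48.5% and the members in 34.2%. For the members without a summit, 33 of 80 neighbouring gene positions (41.2%) carried one inside, and for members with a summit inside 20 of 53 (37.7%).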

How the data were processed

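Per the submitters' processing notes, Bowtie2 and MACS2 were the tools and TAIR10 the build. Versions, peak threshold, pooling and the role of the input were not given in the sources used here. Deposited by the authors was 1 list of 1 bp summits with a score that, by the file's MACS2 summit layout, is a −log10 of a p-value or q-value. A library from untagged plants was not used here.

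Genes came from an NCBI table of TAIR10.1 (names, types, extents, no strand). The share of nuclear summits within 300 bp of a coding gene end was 53.2% and lower at every shift of 200 to 2000 bp tried (at most 47.1%). Summit positions count from 1. Summits, genes and length deciles were handled with Python 3.11.15, numpy 2.4.6, pandas 2.3.3 and SciPy 1.17.1. Gene and flank assignment and length weighting were checked on simulated summits. The share among genes of the same length is computed, not drawn at random. No test was run. Alternatives were flanks of 500 and 2000 bp, the upper 50% of scores, nearest gene only, wider membership and other length matching. Leaving out tandem members, leaving out gene-poor windows, flank-only counts from the upper 50% of scores and counts over all neighbouring pairs were added after seeing the data.

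Positions and scores are given for the 10 highest scores inside members, for members of role groups and for tandem members. The members, lists and role groups were chosen with earlier results of these data known. Motifs, promoters and sequences were not analysed here.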

Additional observations from a re-analysis of the deposited data

How the results depend on the processing

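Set beside genes of the same length, the NAC share stayed lower under each way of counting but one. These matched shares were 60.3% with flanks of 500 bp (NAC genes 34 instead of 39), 74.2% with 2000 bp (48 NAC genes), 51.9% with the nearest gene only (29) and 43.4% with the upper 50% of scores (23). For summits inside the gene from the upper 50% of scores, the matched share was 27.5% (18 NAC genes instead of 27). Genes with a flank summit only numbered 7 with 500 bp and 21 with 2000 bp, instead of 12, and 5 with the upper 50% of scores, a count added after seeing the data (matched share 15.9%). With 2000 bp their share, 26.6%, was above the matched 25.7%, the exception named above. The length-matched share of 66.4% was 66.7% from the 100 genes nearest in length and 66.9% with 20 bins. It was 67.7% outside gene-poor windows, an alternative chosen after seeing the data, and 48.6% for summits inside the gene. The median highest score was 10.3 for summits inside the gene only, instead of 9.97. The median distance to the nearer end was 324.5 bp both from all summits inside and from the upper 50% of scores. When only summits inside counted, the role-list genes with a summit fell from 33 to 25: membrane-held 12 to 10, stress 5 to 4, senescence, xylem and DNA damage 3 to 2 each, and JMJ14 partners and boundary genes 2 to 1 each. Over all genes 47.7% had a summit inside. The matched shares given for the groups include flanks, and matched shares for summits inside were not computed per group. No paired analysis was possible because the file holds 1 list without values per library. Small groups and unknown depth limit what a missing summit shows.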

Other observations

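NAC genes known mainly by other names also carried JMJ28 summits. A further 19 genes had a NAC or ANAC number as a synonym only, and 12 of them (63.2%, exact 95% interval 38.4 to 83.7) had a JMJ28 summit, against 71.6% of genes of the same length. With these included, 51 of 98 NAC genes (52.0%) had one, against 67.4% of genes of the same length. The difference between the numbered and the otherwise named genes was not tested. Of the 22 role-list genes outside the members, 13 had a summit (59.1%, against 65.4% of all genes). In 10 of the 22 a summit lay inside the gene, where 47.7% of all genes had one.

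The WRKY and MYB families, also numbered, gave low shares as well. WRKY genes, many of them regulators of defence, had a summit in 31 of 67 cases (46.3%), against 68.5% of genes of the same length. Numbered MYB genes had one in 41 of 115 cases (35.7% against 65.3%), and inside the gene in 18.3%, where the NAC genes had 34.2% and the WRKY genes 38.8%. Differences between the 3 families were not tested.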
